A study of Mus musculus with 61 samples.

Results

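The effect of IL-27 on the transcripts of cultured mouse CD4 T cells was measured at 60 to 72 hours. Of the 61 arrays of the series, 6 were used, chosen by their titles: IL27-60, IL27-72 and IL27-72d against ctrl-60, ctrl-72 and ctrl-72d, all on the HT_MG-430A chip. Both arms were naive CD4 T cells of C57BL/6 mice, stimulated with anti-CD3 at 1 µg/ml and a second antibody, at the same concentration, that the labels write as anti-CD8. The IL27 arm received IL-27 at 25 ng/ml, under conditions named in the series title for the differentiation of Tr1 (type 1 regulatory) cells. The treatment text is the same for both arms, so the arm was taken from the titles, and the time, given there without a unit, was read as hours. The meaning of the suffix d is not given in the labels. Nothing in them says that the arrays came from separate cultures or animals. A p-value here rests on a spread pooled over the 24 arrays of the fit described below, at 25 to 72 hours. That spread includes how the effect varied between the times of a window. The spread among arrays may be technical in part or in full. No array held values identical to another.

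IL-27 is a cytokine of the IL-12 family that signals through a receptor pairing Il27ra with gp130 and activates STAT3. In CD4 T cells STAT3 is known for switching on feedback regulators such as Socs3, and IL-21 and IL-10. Tr1 cells are FoxP3-negative CD4 cells known for secreting IL-10.

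Shown are promoters of 2 genes that rose (Mt2, Ctla2a) and 1 that fell (Bst2). Each gene is described below, and these promoters were picked because each holds a motif of a pathway named here. They are the 250 bases before the annotated start, from RefSeq on GRCm38.p6, written 5′ to 3′ on the gene's strand, with motif matches of either strand in capitals. Mt2, a metallothionein that binds zinc and copper, starts right after chr8:94172368-94172617 on the plus strand, and its capitals mark the metal response element core TGCNCNC, found 5 times. At least as many matches occurred in 0.344% of 32841 promoters of that length, and at least 1 in 44.4%. For Ctla2a, which encodes a cathepsin inhibitor, the window is chr13:60936626-60936875 on the minus strand, and the capitals mark the STAT motif TTCNNNGAA, found once, which 7.02% of promoters held. The outermost of its annotated starts was used. Bst2 encodes tetherin, an interferon-induced membrane protein that holds back budding virus. Its window is chr8:71537473-71537722 on the minus strand, and the capitals mark 2 overlapping matches of the interferon-stimulated response element core, GAAA followed after any 2 bases by GAAA. That motif occurred in 2.98% of promoters, and at least 2 times in 0.18%. A match is a string of letters and no evidence of binding, and its part in any change was not tested.
Mt2: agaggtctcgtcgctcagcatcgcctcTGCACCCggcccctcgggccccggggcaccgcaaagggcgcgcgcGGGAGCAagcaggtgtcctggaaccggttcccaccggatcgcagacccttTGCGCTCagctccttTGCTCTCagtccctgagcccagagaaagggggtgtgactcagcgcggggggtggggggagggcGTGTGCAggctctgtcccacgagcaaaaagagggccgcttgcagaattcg
Ctla2a: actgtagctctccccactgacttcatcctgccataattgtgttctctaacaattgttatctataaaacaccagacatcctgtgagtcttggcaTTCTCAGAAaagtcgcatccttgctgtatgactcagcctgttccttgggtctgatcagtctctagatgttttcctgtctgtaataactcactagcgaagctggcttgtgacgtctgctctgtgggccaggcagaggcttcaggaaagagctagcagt
Bst2: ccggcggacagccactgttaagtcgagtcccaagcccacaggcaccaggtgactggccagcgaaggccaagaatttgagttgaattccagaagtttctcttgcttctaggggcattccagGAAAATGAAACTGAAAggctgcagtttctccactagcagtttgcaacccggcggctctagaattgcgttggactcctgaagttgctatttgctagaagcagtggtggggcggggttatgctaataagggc

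The 6 arrays were compared within a limma fit over 24 arrays of the same chip (25 to 72 hours), and 6997 genes were tested on log2(intensity + 32), a scale that understates changes of dim genes. IL-27 changed 1964 genes at an adjusted p under 0.05, which was 28.1% of those tested. Of these, 850 were higher (12.1%) and 1114 lower (15.9%). A difference of at least 2-fold on this scale was reached by 123 of the higher and 66 of the lower genes. Array medians lay between 34.3 and 36.6, and an intensity below that range is called dim here. The effect of the 60 h pair correlated with those of the 72 h and 72d pairs at r = 0.73 and r = 0.79, and the 72 h pairs with each other at r = 0.58. These r are taken across genes, which are not independent replicates. Fitted on the 6 arrays alone, 371 genes were called (235 higher, 136 lower). The median SE was then 0.14, against 0.11 in the fit of 24 arrays.

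All 10 markers of CD4 T cells on the chip had an intensity above the dim range on at least 1 array. Their sums were 20000 to 22900 in the controls and 21870 to 26060 with IL-27. Of the 10, 5 rose and 1 fell (12.1% and 15.9% of all genes tested). The 1 that fell was Cd4 (-0.36 ± 0.09, limma adjusted p = 0.0057), which was not called without the 72 h pair. Of the other cell types' markers, 8 of 9 of B cells, 12 of 14 of myeloid and dendritic cells and 5 of 6 of red cells and platelets were dim on all 6 arrays. The exceptions were Ighm, Cd68, Cst3 and Car2. The ctrl-72d array stood apart. Its myeloid sum was 1767, against 814 to 845 in the other controls and 624 to 873 with IL-27, and its red cell sum was 146 against 93.3 to 95.1 and 80.0 to 87.7. Most of that myeloid sum was Cst3, at 1486 against 645 (ctrl-60) and 621 (ctrl-72). Car2 measured 80.5 on that array against 32.5 and 25.5. Apart from Cd68, the other markers of both lists were dim there too. Whether such cells were present, and their part in the differences below, was not tested. In such bulk RNA, fewer cells of a type and less RNA per cell cannot be told apart. Without the 72d pair 1238 genes were called, among them all 20 genes described next. Those 20 had been picked for large differences on all 6 arrays, so this is no independent check.

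The 10 genes that rose most and the 10 that fell most had arms that did not overlap, as did 25.1% of all genes tested. Among those that rose were 3 serpins (Serpinb5, Serpinb1a, Serpinf1) and both metallothioneins named here (Mt1, Mt2). Plac8, a small cysteine-rich protein of lymphocytes and myeloid cells, measured 90.6, 111 and 55.1 in the controls (60 h, 72 h and 72d) and 1993, 3589 and 1400 with IL-27. Its difference on the log2(intensity + 32) scale was 4.25 ± 0.46 (SE from the fit of 24 arrays, n = 3 arrays per arm in this window), with a limma adjusted p of 6.1e-06. Serpinb5 (maspin), a serpin, was dim in every control at 9.90, 12.2 and 11.3 and reached 919, 584 and 866 with IL-27, a difference of 4.23 ± 0.23 (adjusted p = 1.9e-09). A second serpin, Serpinb1a, which inhibits neutrophil proteases, went from 9.58, 11.3 and 11.2 to 454, 876 and 495 (3.85 ± 0.17). By these values, from the brightest probe set of each, both serpins were at the low end of the array in all controls and well above its median in all IL-27 arrays. A second probe set of Serpinb1a, with means in the dim range in both arms, differed by 0.37. Another serpin, Serpinf1 (PEDF), rose by 2.99 ± 0.29, from 23.1, 25.2 and 71.5 to 298, 433 and 1033. The 72d arrays were the highest of both arms for Serpinf1.

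Mt2, whose promoter held 5 metal response cores, measured 62.4, 81.7 and 116 in the controls and 1366, 1757 and 1548 with IL-27, a difference of 3.76 ± 0.44 (adjusted p = 1.5e-05). Its neighbour Mt1, separated from Mt2 by 5315 bases, went from 301, 463 and 452 to 3355, 4645 and 3560 (3.16 ± 0.46). The lowest IL-27 array was above the highest control for both Mt1 and Mt2. A second probe set of Mt1, with means in the dim range in both arms, differed by 0.17. Of 10 tested genes of metal handling, 5 rose and 1 fell, against 12.1% and 15.9% of all genes tested. The median of the 10 was 0.29, against -0.04 over all genes. The others that rose were Fth1, the ferritin heavy chain, by 0.40 ± 0.08, Hmox1, heme oxygenase, by 0.47 ± 0.11, and the zinc transporter Slc39a14. Tfrc, the transferrin receptor, fell.

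Ctla2a rose by 3.54 ± 0.35, from 158, 189 and 127 to 1959, 2298 and 2224 (adjusted p = 2e-06); a close paralogue exists, and the probes may not separate them. Lgals3 (galectin-3), a carbohydrate-binding protein, measured 69.6, 96.0 and 227 in the controls and 789, 2038 and 2087 with IL-27 (3.35 ± 0.33). The 60 h array was the lowest of the IL-27 arm for Lgals3 and still above every control. Tgfb3, a TGF-beta ligand, was dim in the controls at 11.3, 18.4 and 15.9 and reached 306, 420 and 456 (3.16 ± 0.15, adjusted p = 8.7e-10). The cathepsin Ctsw, a protease of cytotoxic lymphocytes, went from 126, 238 and 124 to 979, 1658 and 1651 (2.92 ± 0.16).

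Of the genes that fell most, Lad1, which encodes an anchoring filament protein of epithelia, measured 700, 375 and 742 in the controls and 43.1, 19.3 and 24.8 with IL-27, a difference of -3.35 ± 0.20 (adjusted p = 6.5e-09). Cd83, an activation marker of lymphocytes and dendritic cells, went from 309, 206 and 646 to 15.4, 16.1 and 17.2 (-2.98 ± 0.25). For both, every IL-27 array lay far below every control, and Cd83 was dim in all of them. Tnfsf11 (RANKL), a TNF family ligand, fell by 2.89 ± 0.32 on the log2 scale, from 697, 474 and 1244 to 60.4, 43.6 and 133. Eomes, a T-box factor of cytotoxic and memory cells, measured 428, 357 and 662 in the controls and 36.3, 46.8 and 32.3 with IL-27 (-2.83 ± 0.32). Penk, the enkephalin precursor, measured 278, 151 and 742 against 35.5, 14.9 and 18.1 (-2.71 ± 0.37). In the controls of Cd83, Tnfsf11, Eomes and Penk the 72d array was the highest.

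Il2, the growth factor of activated T cells, was brightest at 60 h in both arms, with 2143, 794 and 1296 in the controls and 432, 104 and 137 with IL-27 (-2.60 ± 0.23, adjusted p = 5.5e-07). Igfbp7, a secreted binding protein, measured 202, 473 and 557 against 22.0, 26.9 and 20.2 (-2.91 ± 0.24). That value comes from the brightest of its 3 probe sets; the other two, dim in both arms, differed by -0.04 and 0.08. Fasl, the death ligand of cytotoxic cells, fell by 2.16 ± 0.24, from 417, 379 and 847 to 95.2, 68.2 and 110, and Ms4a4c, a tetraspan membrane protein, by 1.93 ± 0.23. Cd70, the ligand of Cd27, measured 112, 56.1 and 602 in the controls and 11.5 to 15.2 with IL-27 (-2.15 ± 0.53, adjusted p = 0.0067). The ctrl-72d array decided its size: without that pair the difference was -1.31 (adjusted p = 0.045), and in the fit of 6 arrays the adjusted p was 0.091. The other 19 genes, picked on these same arrays, were called in that fit.

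**Figure D1:**
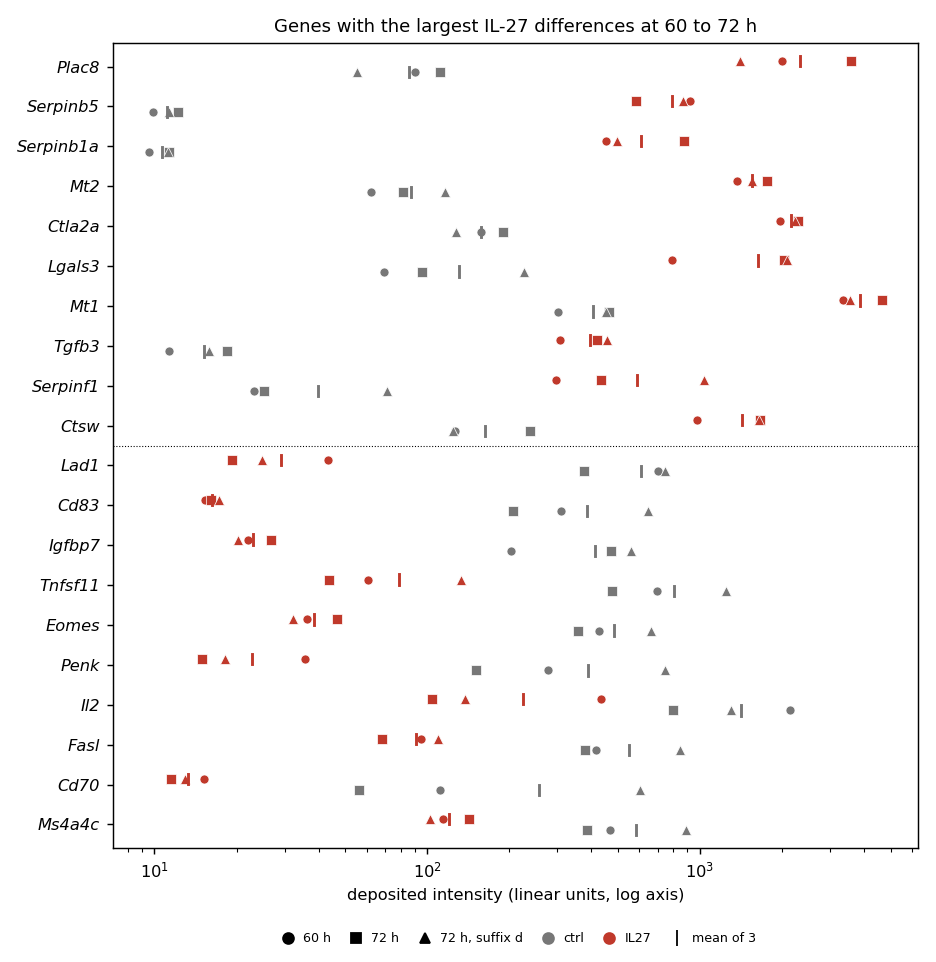
Deposited intensity (linear units on a log axis) of the 10 genes with the largest rise and the 10 with the largest fall, in ctrl (grey) and IL27 (red) arrays; circles are 60 h, squares 72 h, triangles 72 h with suffix d, and bars the mean of 3. The arms do not overlap for any of the 20 genes, and the control triangle of Cd70 (602) lies far from the other two (56.1 and 112).

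Some feedback and receptor genes of the STAT3 pathway were higher with IL-27. Of 17 tested, 8 rose and none fell (12.1% and 15.9% of all genes tested; 9 genes of the list did not pass in either direction), with a median of 0.36. Socs3, the inhibitor of gp130 signalling, measured 757, 774 and 912 in the controls and 2590, 2954 and 2447 with IL-27 (1.67 ± 0.14, adjusted p = 2.9e-07). Its 3 IL-27 arrays lay close together, above every control. Bcl3, an NF-kappaB cofactor, rose by 1.18 ± 0.11, the kinase Jak3 by 0.82 ± 0.11, and the IL-6 receptor chain Il6ra by 0.62 ± 0.10. Il27ra, the receptor's own chain, rose too, by 0.66, as did Il21r, Il12rb2 and Pim1. The feedback genes Socs1, Socs2 and Cish did not rise, with differences of -0.14, -0.80 and -0.06, nor did Il6st (gp130), at -0.02.

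Of 18 tested regulators of IL-10 and Tr1 cells, 9 rose and 2 fell, against 12.1% and 15.9% of all genes tested. The median of the 18 was 0.33. Il10 itself was dim in all controls at 10.1, 8.82 and 9.43 and measured 52.4, 75.0 and 21.7 with IL-27, so the 72d array stayed in the dim range. The difference was 0.92 ± 0.17 (adjusted p = 0.00084), and it was not called in the fit of 6 arrays (adjusted p = 0.058). Il21, a cytokine that sustains IL-10 in Tr1 cells, went from 23.8, 26.9 and 24.3 to 324, 286 and 372 (2.65 ± 0.14, adjusted p = 1.7e-09). Nfil3, a leucine-zipper factor, rose from 247, 322 and 236 to 1319, 1217 and 1278 (2.13 ± 0.20). Both were nearly equal across the 3 IL-27 arrays, unlike Il10. Prdm1 (Blimp-1), Ahr, Batf, Lag3, Rora and Hif1a were the other members that rose. A second probe set of Ahr, with means in the dim range in both arms, differed by -0.02. Gata3, the Th2 master factor, fell by 1.33 ± 0.12, from 174, 203 and 252 to 42.4, 92.1 and 62.0, and Eomes was the second that fell.

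Against the background of 12.1% higher and 15.9% lower, each list of helper subset genes is given by its count. Of 13 tested Th1 genes 4 rose and 3 fell. Hlx, a T-bet partner, rose by 1.18 ± 0.12, and Il12rb2, a chain of the IL-12 receptor, by 0.89 ± 0.16. Eomes (-2.83 ± 0.32) and Fasl (-2.16 ± 0.24), described above, were among the 3 that fell. Of 6 Th2 genes 2 rose (Nfil3, Il4ra) and 2 fell (Gata3, Ccr8). Of 6 Th17 genes 4 rose and 1, the chemokine receptor Ccr6, fell by 1.46 ± 0.25. Among the Th17 genes that rose, Il21, Ahr and Batf were already counted with the regulators of IL-10 and Tr1 cells. Il17a was dim on all 6 arrays and was not tested. Among 12 regulatory T cell genes 4 were called, a share near that of all genes; 3 fell, of which Nrp1, a co-receptor, fell by 1.30 ± 0.16, and 1 rose, Tgfb1, by 0.29 ± 0.08 with overlapping arms. Of 7 co-inhibitory receptors 2 were called, a share near the 28.1% of all genes: Lag3 rose by 0.72 ± 0.20 and Cd200 fell by 0.81 ± 0.26, with overlapping arms for both. Neither was called without the 60 h pair.

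Cytotoxic genes were split. Of 10 tested, 5 rose (Ctsw, Prf1, Klrd1, Cst7 and Srgn) and 2 fell (Fasl and Serpinb9, the granzyme B inhibitor), with a median of 0.66. Of all genes tested 12.1% were higher and 15.9% lower. Prf1 (perforin) was dim or nearly so in the controls at 25.9, 23.8 and 38.6 and reached 278, 335 and 266 (2.41 ± 0.14, adjusted p = 5.2e-09); a second, dim probe set of Prf1 differed by -0.01. Klrd1 (CD94), a receptor chain of NK and CD8 cells, went from 13.1, 16.0 and 32.8 to 130, 281 and 121 (1.93 ± 0.18). Klrk1 (NKG2D), counted here with the NK and CD8 markers, rose from 17.0, 16.2 and 28.7 to 84.7, 159 and 59.6 (1.28 ± 0.19). For Klrd1 and Klrk1 the 72 h array without the suffix was the highest of the IL-27 arm. Of the 2 tested markers of NK and CD8 cells Klrk1 rose and Cd8b1, a chain of CD8, fell by 0.63 ± 0.19, from 176, 173 and 313 to 118, 123 and 140, a call lost without the 72d pair, and 4 of the 7 markers on the chip were dim on all 6 arrays. The summed level of the 7 was 247 to 402 in the controls and 275 to 384 with IL-27. Their part in the cytotoxic genes was not tested.

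Of 14 tested cytokines 4 rose (Tgfb3, Il21, Il10, Tgfb1) and 5 fell, against 12.1% and 15.9% of all genes tested. The median of the 14 was -0.40 and became 0.10 without the 72d pair. Besides Il2, those that fell were Il3, Ebi3, Lif and Lta. TNF family ligands were mostly lower: of 10 tested, 5 fell and 1 rose, with a median of -0.53. Tnfsf8 (CD30 ligand) fell by 1.21 ± 0.12, from 183, 268 and 278 to 62.0, 97.8 and 101. Tnfsf9, the ligand of 4-1BB, was the member that rose, from 167, 174 and 221 to 274, 508 and 358 (0.88 ± 0.17). Among 7 chemokines Ccl4 (MIP-1 beta) rose by 1.26 ± 0.26, or 0.74 without the 72 h pair, and Ccl22 fell by 0.29 ± 0.09. The other chemokines were not called, so the share called was near the 28.1% of all genes tested. Of 10 chemokine and homing receptors 2 rose and 3 fell; Cxcr4, the CXCL12 receptor, rose from 80.8, 141 and 57.2 to 306, 276 and 286 (1.42 ± 0.39, adjusted p = 0.013), and was not called without the 60 h pair or without the 72d pair.

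The MHC class II genes parted from each other. H2-Ab1, the beta chain of I-A, rose from 75.0, 213 and 93.8 to 344, 535 and 573 (1.76 ± 0.31, adjusted p = 0.00066). H2-Aa, the alpha chain of I-A, was not called (-0.18). It measured 23.6, 18.9 and 57.8 in the controls and 18.4, 23.1 and 31.3 with IL-27, dim on every array but ctrl-72d. Cd74, the invariant chain, fell by 1.31 ± 0.26, from 182, 144 and 282 to 66.4, 35.6 and 84.1. H2-DMa, a peptide exchange chain, fell by 0.87 ± 0.18, and H2-Eb1, the beta chain of I-E, by 1.13 ± 0.36. The arms of H2-Eb1 overlapped, since IL27-72d (125) lay above ctrl-60 (96.9) and ctrl-72 (105), and ctrl-72d was the highest at 426. C57BL/6 mice are known not to make I-E protein. Of the 5 tested class II genes 1 rose and 3 fell, against 12.1% and 15.9% of all genes tested. That count was the same without the 72d pair. The summed level of the myeloid markers, given above, was highest in that control and was not tested against these genes.

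**Figure D2:**
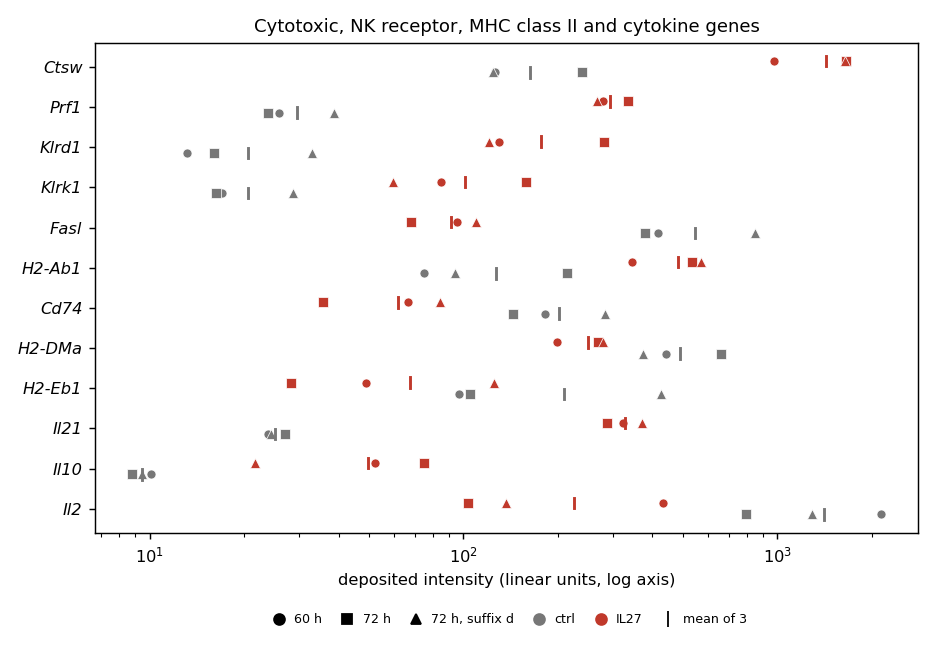
Deposited intensity (linear units on a log axis) of 12 cytotoxic, NK receptor, MHC class II and cytokine genes in ctrl (grey) and IL27 (red) arrays; circles are 60 h, squares 72 h, triangles 72 h with suffix d, and bars the mean of 3. H2-Ab1 lies higher with IL-27 (344 to 573) while Cd74 lies lower (35.6 to 84.1), and the Il10 triangle of the IL27 arm (21.7) is nearest to the controls.

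Interferon-response genes were lower more often than higher at this time. Of 20 tested, 2 rose and 7 fell, against 12.1% and 15.9% of all genes tested, with a median of -0.20. Without the 72d pair 3 rose and 3 fell, and without the 72 h pair 1 rose and 10 fell. Bst2, with the overlapping response elements in its promoter, measured 829, 684 and 915 in the controls and 481, 316 and 475 with IL-27 (-0.90 ± 0.16, adjusted p = 0.00066). Iigp1, a GTPase that attacks the vacuoles of parasites, went from 854, 452 and 391 to 132, 229 and 75.3 (-1.77 ± 0.35). The arms of Bst2 and Iigp1 did not overlap. Ifih1 (MDA5), a sensor of double-stranded RNA, fell by 0.88 ± 0.20. The guanylate-binding protein Gbp3 rose by 0.66 ± 0.15, from 180, 183 and 159 to 215, 423 and 273, and Gbp2 was the other that rose. Of 10 genes of class I presentation none rose and 2 fell: Psme1, a proteasome activator, by 0.26 ± 0.05, and Psmb8, an immunoproteasome subunit, by 0.23 ± 0.08. The share called in that list was below the 28.1% of all genes tested.

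Glycolysis and hypoxia genes were higher. Of 21 tested, 11 rose and none fell, against 12.1% and 15.9% of all genes tested, with a median of 0.47. The rise was called for 7 without the 72d pair and for 6 in the fit of 6 arrays. Slc2a1 (GLUT1), the main glucose importer of activated T cells, measured 1565, 1495 and 1389 in the controls and 2533, 2791 and 2701 with IL-27 (0.84 ± 0.13). Slc16a3 (MCT4), a lactate exporter, went from 88.0, 128 and 107 to 219, 214 and 221 (0.85 ± 0.16). The 3 IL-27 arrays of each transporter lay within a narrow range. P4ha1, a collagen prolyl hydroxylase subunit, measured 431 at 60 h and 794 at 72 h in the controls, with 72d below both, against 762, 1377 and 1461 (1.12 ± 0.26); its arms overlapped and it was not called without the 72d pair. Hk1, a hexokinase, rose by 0.73 ± 0.17.

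In each list of this paragraph the share called was near or below the 28.1% of all genes tested. Of all genes tested 12.1% were higher and 15.9% lower. Of 19 cholesterol synthesis genes 5 fell and none rose, with a median of -0.14. Idi1, the isoprenoid isomerase, fell by 0.83 ± 0.14 and Hsd17b7 by 0.78 ± 0.12. Of 10 fatty acid synthesis genes Srebf1, a lipogenic factor, rose by 0.33 ± 0.09 and the desaturase Scd1 fell by 0.45 ± 0.13. Among 21 mitosis genes 6 fell and none rose, with a median of -0.29; Cdk1 measured 1594, 1527 and 1584 against 1148, 1180 and 913 (-0.53 ± 0.08). None of the 21 was called in the fit of 6 arrays. Of 28 replication and cell cycle genes 2 rose and 5 fell. This count turned with the pairs, to 1 and 15 without the 72 h pair and to 3 and 1 without the 72d pair. Rrm1, a ribonucleotide reductase subunit, fell by 0.57 ± 0.09, while Ccnd3 and Cdk6, the cyclin and kinase of G1, each rose by 0.48.

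Of 23 genes of amino acid supply and the unfolded protein response 5 rose and 1 fell. That share called was near the 28.1% of all genes tested (12.1% higher, 15.9% lower). Slc7a5 and Slc3a2, the 2 chains of a large neutral amino acid transporter, rose by 0.68 ± 0.10 and 0.62 ± 0.14, and Phgdh, the first enzyme of serine synthesis, fell by 0.71 ± 0.12. Of 14 genes induced early by the T cell receptor 5 rose, Ier3 by 1.86 ± 0.39 and Junb by 0.79 ± 0.17, and 4 fell, Rel by 0.79 ± 0.16 and Nfkbia by 0.44 ± 0.08. Cd44, an adhesion receptor of activated cells, fell by 1.07 ± 0.14 among 10 co-stimulatory and adhesion receptors, of which 3 rose: Cd6, Cd5 and Cd28. Of 15 genes of naive and memory cells 4 rose and 5 fell. Id2, an inhibitor of E proteins, went from 243, 254 and 176 to 1219, 1779 and 1172 (2.46 ± 0.39), and Myb fell by 1.01 ± 0.18. Among 18 survival and death genes 5 rose and 4 fell; Gadd45g, a stress-response gene, rose by 2.37 ± 0.27 and Bid, which promotes death, fell by 0.83 ± 0.14. The calls of Il4ra, Tgfb1, Scd1, Ccnd3, Psmb8, Ccl22 and Cd28 were lost without 1 or more of the matched pairs.

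**Figure D3:**
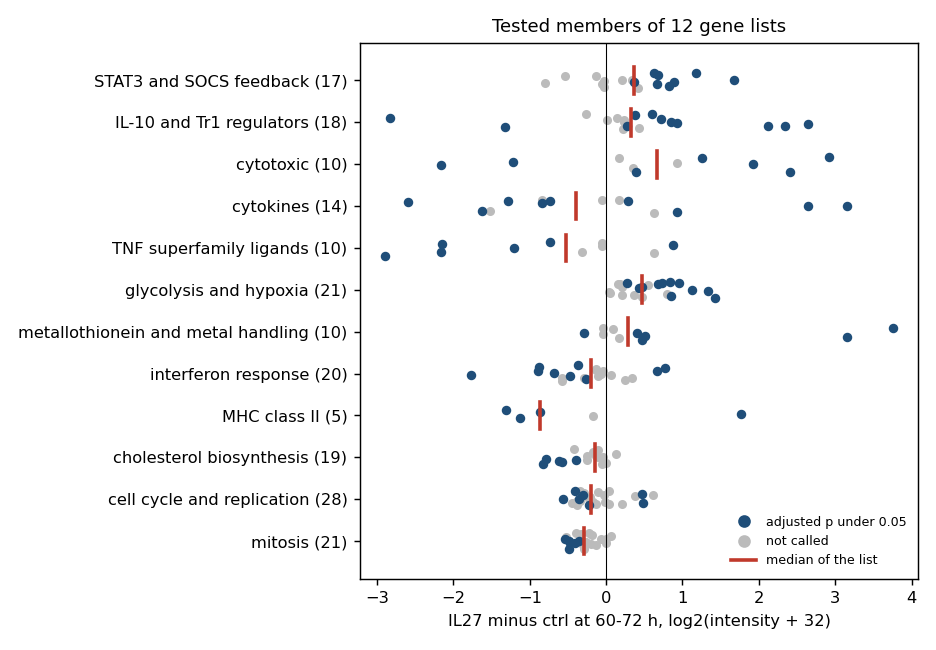
Difference between IL27 and ctrl at 60 to 72 h on the log2(intensity + 32) scale for each tested member of 12 gene lists (number tested in parentheses); blue points passed an adjusted p of 0.05, grey points did not, and red bars are list medians. Members of the STAT3 and glycolysis lists that passed lie above 0, while the MHC class II and cytotoxic lists have members that passed on both sides.

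The effect at 60 to 72 hours was then set against its mean over the 3 earlier windows of the same fit (25 to 30, 36 to 42 and 48 to 54 hours, 6 arrays each, sharing no arrays with the late window). It differed for 342 of 6997 genes (4.89%), 180 more positive (2.57%) and 162 more negative (2.32%). Of these, 237 were larger in size at 60 to 72 hours with the same sign, 5 were smaller and 100 had the opposite sign. In each window alone 243, 292, 658 and 1964 genes were called, in order of time. Which arrays entered moved the count of 342 to 180 without the 60 h pair, 864 without the 72 h pair and 200 without the 72d pair. It fell to 13 without the 4 arrays of 72 hours.

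Serpinb5 had differences of 0.04, 0.85, 3.11 and 4.23 in the 4 windows, and the contrast of the last with the mean of the others was 2.89 ± 0.26 (adjusted p = 8.9e-06). Serpinb1a ran from -0.01 and 0.16 through 2.72 to 3.85 (contrast 2.89 ± 0.20). Lgals3, Tgfb3 and Serpinf1 stood at 1.51, 1.37 and 1.40 at 48 to 54 hours and had contrasts of 2.76 ± 0.38, 2.66 ± 0.18 and 2.30 ± 0.34. Dntt, the template-independent DNA polymerase of immature lymphocytes, differed by -0.02, 0.09 and 0.31 in the earlier windows and by 2.57 ± 0.27 in the last. Its control values were 26.8, 82.1 and 14.7 and its IL-27 values 206, 416 and 577, and its contrast was 2.44 ± 0.32 (adjusted p = 0.00032). Dntt was the member of these 6 with the smallest difference at 48 to 54 hours. Contrasts were also positive for Ctsw (1.71 ± 0.19), Klrd1 (1.73 ± 0.20), Prf1 (1.61 ± 0.16), Klrk1 (1.10 ± 0.21) and Tnfsf9 (1.39 ± 0.19). Tnfsf9 differed by -0.80, -0.48 and -0.24 before it reached 0.88.

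Among the contrasts that were more negative, Il2 had differences of -0.30, -0.44, -1.66 and -2.60 (contrast -1.80 ± 0.26, adjusted p = 0.00082). Cd80, a ligand of Cd28, differed by -0.10, -0.22, -1.005 and -1.85 (contrast -1.41 ± 0.20), with control values of 155, 178 and 376 and IL-27 values of 29.6, 32.3 and 54.0. Igfbp7 had a contrast of -1.50 ± 0.27. Iigp1 differed by 0.91, -0.48, -1.30 and -1.77 in the 4 windows (contrast -1.48 ± 0.41), and Bst2 by 0.56, 0.04, -0.51 and -0.90 (-0.93 ± 0.18). The kinase Dclk1 ran through 0.70, 0.37, -0.70 and -1.69 (-1.81 ± 0.47), and the semaphorin receptor Plxnc1 through 0.46, 0.62, -0.34 and -1.09 (-1.34 ± 0.28). All 4 were thus already negative at 48 to 54 hours. At 60 to 72 hours Plxnc1 differed by -0.68 without the 72d pair. The value of Dclk1 comes from its brightest probe set. Its dimmer probe sets differed by 0.02, -0.12, -0.30, -0.50 and -0.61 at 60 to 72 hours. Iigp1 and Dclk1 were not called in this contrast without the 72d pair, nor Il21 without the 60 h or the 72 h pair. Il21 was less raised in the last window (2.65) than at 36 to 42 (3.76) and 48 to 54 hours (3.69), with a contrast of -0.66 ± 0.16 (adjusted p = 0.028). Socs3, Ctla2a, Plac8, Eomes and Tnfsf11, all called at 60 to 72 hours, had contrasts that did not pass the test, from -0.78 ± 0.37 for Eomes to 0.92 ± 0.40 for Ctla2a.

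**Figure D4:**
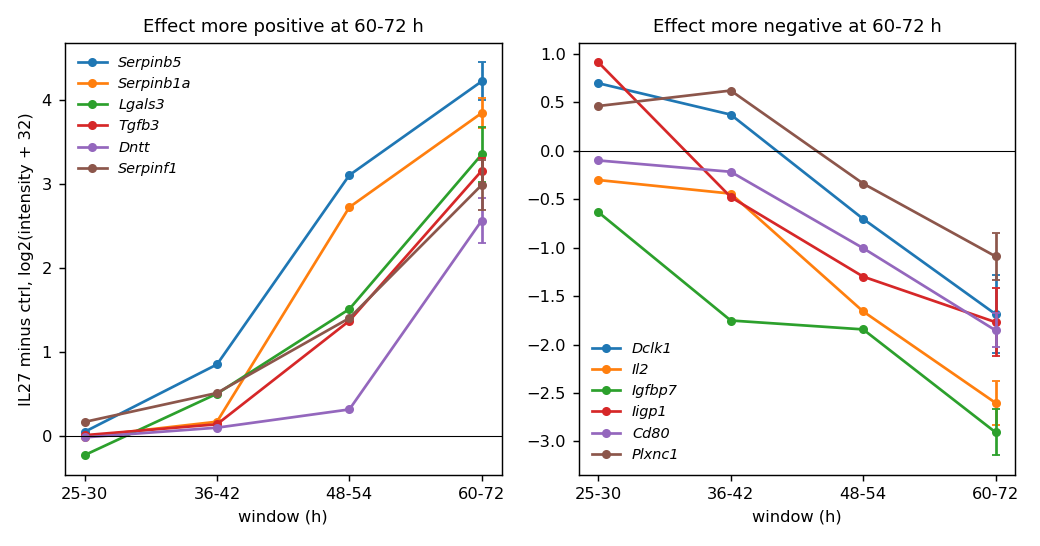
Difference between IL27 and ctrl on the log2(intensity + 32) scale in 4 windows of time (h) for the 6 genes each whose effect became most positive (left) or most negative (right) at 60 to 72 h; error bars there are the SE of the fit. Dntt is at -0.02, 0.09 and 0.31 before it reaches 2.57, and Iigp1 is at 0.91, -0.48 and -1.30 before -1.77.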

How the data were processed

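The authors deposited 1 table of linear array intensities for this chip; the submitters' processing notes name MAS5, with no version. The array scaling used and the detection calls are not given in these sources. The number of arrays limits the precision. Probe sets were named from the platform annotation: of 22626, 20173 had 1 gene, 942 several and 1511 none. The brightest probe set stood for each of 12291 genes. Genes above the array median on at least 3 of 24 arrays were kept. No renormalization was done. The fit (limma 3.58.1, R 4.3.3) on log2(intensity + 32) had 8 times as a factor and 1 IL-27 coefficient for each of 4 windows, 12 residual degrees of freedom, an intensity trend and Benjamini-Hochberg adjustment; it was tested on simulated data. Named genes are the 10 with the largest difference each way, with the same sign in all 3 pairs, the 6 with the largest contrast each way, up to 4 per list by adjusted p, and Il10; other members were named after their values were seen. Members and 31 lists were chosen with earlier results of these data known. The alternatives were other pseudocounts, filters, scalings, probe set rules, moderation, blocks and left-out arrays; leaving out matched pairs or all arrays of 72 h was added after seeing the data. The other chip's 9 arrays were not used here.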

Additional observations from a re-analysis of the deposited data

Results flagged for a closer look

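The IL-27 effect at 60 to 72 hours differed from its mean at 25 to 54 hours, by the limma contrast over all genes, for 342 of 6997 genes (4.89%). Of the genes named by the rules, 29 were among them, each listed here with its contrast on the log2(intensity + 32) scale. Among protease inhibitors, secreted proteins and lectins, and the polymerase Dntt, the effect was more positive for Serpinb5 (2.89), Serpinb1a (2.89), Lgals3 (2.76), Tgfb3 (2.66), Dntt (2.44) and Serpinf1 (2.30). Transcription factors with a more positive effect were Id2 (1.73) and Hlx (0.59). In the cytotoxic and NK receptor group the contrasts were positive for Klrd1 (1.73), Ctsw (1.71), Prf1 (1.61) and Klrk1 (1.10). Ligands and antigen presentation genes with positive contrasts were H2-Ab1 (1.43), Tnfsf9 (1.39), Ccl4 (1.11) and Tgfb1 (0.36). Metabolic genes with positive contrasts were P4ha1 (1.14), Slc16a3 (0.69) and Slc2a1 (0.60). More negative effects were found for the cytokines Il2 (-1.80) and Il21 (-0.66), the interferon-response genes Iigp1 (-1.48) and Bst2 (-0.93), the surface proteins Cd80 (-1.41), Plxnc1 (-1.34) and Ms4a4c (-0.93), and Dclk1 (-1.81), Igfbp7 (-1.50) and Rrm1 (-0.47). The contrasts of Ms4a4c, Dclk1, Iigp1, Il21, Tgfb1, Id2, Hlx, Ccl4, Slc2a1, Slc16a3, P4ha1 and H2-Ab1 did not pass the test without 1 or more of the matched pairs. Contrasts that moved by over 1.5 times were those of Ccl4 (0.59 without the 72 h pair) and of Ms4a4c (-0.51) and Rrm1 (-0.31) without the 72d pair.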

How the results depend on the processing

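The count of 1964 genes at 60 to 72 hours became 371 in a fit of only the 6 arrays, 951 in that fit with a replicate block of the 3 pairs, 330 without the 4 arrays of 72 h and 1238 without the 72d pair; leaving out single arrays gave 1304 (without ctrl-72d) to 2203 (without ctrl-72). The count of 342 for the contrast with earlier windows became 226 with a filter of 12 arrays above the median, 587 with a replicate block by time and suffix d, 13 without the 4 arrays of 72 h, and 180, 864 and 200 without the 60 h, 72 h and 72d pairs; single arrays left out gave 180 (ctrl-60 or IL27-60), 184 (ctrl-72d) and 218 (IL27-72d) to 731 (ctrl-72). Counts moved both ways when arrays were left out, and the cause was not tested. That suffix block gave 2310 at 60 to 72 hours. Arrays with the same suffix and time deviated together at r = -0.01 (30 h), 0.51, 0.57 and 0.23 (72 h); a pairing was taken only if all exceeded 0.1, which the 30 h arrays did not, so the pairs are matched by label only. The other alternatives left both counts within 1.5 times. Of 148 results for named genes, none that was called in the main or the alternative run changed direction between them. Changes of sign where neither run called the gene were not counted. Over all alternatives 374 lost their call, 26 gained it and 2916 kept their side of the threshold. Dim genes have no detection calls here, and their differences depend on the pseudocount: Il10 differed by 2.11 with a pseudocount of 1 and 0.44 with 100.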

Other observations

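These 4 groups were put together after their members' values had been seen, so their counts describe the arrays and support nothing further. Known hypoxia-inducible genes outside the glycolysis list were higher with IL-27: of 14 tested, 12 rose and none fell, with a median of 1.09 at 60 to 72 hours against 0.15 over the earlier windows. Ndrg1, a stress-response gene, measured 346, 868 and 291 in the controls and 1170, 1795 and 1907 with IL-27 (1.76 ± 0.42, limma adjusted p = 0.0054). Gbe1, the glycogen branching enzyme, rose by 1.51 ± 0.27 and Pygl, glycogen phosphorylase, by 1.36 ± 0.23, while Angptl4 (0.23 ± 0.12) did not pass. The ctrl-72 array was the highest control for Ndrg1, Gbe1 and Pygl. Without the 72d pair 3 of the 14 were called, with a median of 0.97, and in the fit of 6 arrays 10 were.

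Purine synthesis genes were lower: of 10 tested, 5 fell and 1 rose, with a median of -0.45 against -0.07 earlier. Gart, which catalyses several steps of the pathway, measured 924, 499 and 724 in the controls and 558, 316 and 239 with IL-27 (-0.93 ± 0.15), and Ppat, its first enzyme, fell by 0.76 ± 0.15. Impdh1, of guanine nucleotide synthesis, rose by 0.51 ± 0.12. In the fit of 6 arrays 1 of the 10 was called. Genes of the TGF-beta pathway moved both ways, with 5 of 13 higher and 3 lower. Beside the ligand Tgfb3, the type I receptor Acvrl1 rose from 27.7, 57.9 and 16.9 to 158, 261 and 190 (1.85 ± 0.30) and the latent-complex protein Ltbp3 by 0.88 ± 0.13. The receptor Tgfbr1 fell by 0.81 ± 0.12, and the feedback inhibitors Skil and Pmepa1 fell by 0.98 ± 0.11 and 0.91 ± 0.11. Among 8 serpins tested, Serpinb5, Serpinb1a and Serpinf1 rose, while Serpinb9 fell by 1.22 ± 0.27 and Serpinc1 by 1.39 ± 0.37. The 72d pair carried much of both: the pairs of 60 h, 72 h and 72d differed by -0.79, -0.77 and -2.11 for Serpinb9 and by -0.99, -0.37 and -2.82 for Serpinc1.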
